A study of Mus musculus with 16 samples.

Results

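The regions described here carried H3K27ac in unstimulated bone marrow-derived macrophages (BMDMs) with and without the PARP inhibitor PJ34, and were found in neither list of peaks made after IFNγ. The peaks of 4 lists were merged where they shared at least 1 bp. A region was kept when it held a peak of Control and a peak of PJ34 and no peak of IFNγ or IFNγ+PJ34. This rule was met by 2231 of 55218 merged regions (4.04%), and by 7.88% of the 28321 regions with both a Control and a PJ34 peak. Of all regions with a Control peak, 32.3% held no IFNγ peak, and of those with a PJ34 peak, 32.4% held none of IFNγ+PJ34. The members were thus chosen by the measured peaks, and their presence in 2 lists and absence from the others is a description and not a finding. They are called lost regions below, for brevity. A region without a listed peak was under the peak caller's threshold in at least 1 replicate of that condition, which does not show that acetylation was absent.

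The macrophages were grown from the marrow of C57Bl6 mice of 8 to 12 weeks. Control cells were untreated, IFNγ cells received 100 ng/mL for 1 h, PJ34 cells received 20 µM of the inhibitor, and the fourth group received the inhibitor at 20 µM before the same 1 h of IFNγ. Each condition had 2 ChIP samples and 2 input samples, 16 in all, and the 4 deposited lists each combine the 2 replicates of 1 condition. The labels used here do not say whether replicates came from separate mice, and a list has no replicate values, so no test across replicates was possible. The lists were of similar length, from 40708 peaks in IFNγ to 44090 in PJ34, and covered 52.6 Mb in Control, 42.5 Mb in IFNγ, 47.9 Mb in PJ34 and 44.1 Mb in IFNγ+PJ34. The depth of the libraries is not given in these files. The promoters of 10 of 10 macrophage markers had a peak in all 4 lists, against 0 of 6 for T cells, 0 of 6 for fibroblasts, 1 of 6 for B cells, 2 of 5 for dendritic cells and 1 of 5 for erythroid cells. For neutrophils, 1 of 6 had one, Camp, which had no promoter peak in IFNγ+PJ34.

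H3K27ac is an acetyl mark on histone H3 that p300 and CBP place at active enhancers and promoters. IFNγ signals through JAK kinases, and interferon-response genes gain this acetylation at their enhancers. IFNγ is also known for damping parts of the resting macrophage programme, such as genes of tissue-resident or alternatively activated cells. PJ34 inhibits the nuclear enzyme PARP-1 and its relatives, which attach ADP-ribose to proteins.

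The lost regions differed widely in sequence and setting, and 6 windows of 200 bases around the Control summit are printed to show this. They were read from GRCm38 on the + strand. The first pair lies in the introns of 1110008L16Rik beside Psma6, where lost regions were dense. The third lies beside Saa4 and the fourth beside Gnaq, and all 4 were among the 10 members with the highest scores. The fifth is the highest-scoring promoter member, at Plpp1. The sixth is the promoter member of Cx3cr1, chosen after its values were seen. Capitals mark matches to the motifs searched, which were the STAT6-type motif in the second and sixth, ISRE-type and NF-κB motifs in the fourth, and the GAS motif TTCNNNGAA in the third, with no match in the first or at Plpp1.
Psma6 side, first region, chr12:55368097-55368296: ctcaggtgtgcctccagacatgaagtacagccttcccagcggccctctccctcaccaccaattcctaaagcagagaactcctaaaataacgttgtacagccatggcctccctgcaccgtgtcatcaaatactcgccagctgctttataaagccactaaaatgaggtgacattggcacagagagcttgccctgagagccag
Psma6 side, second region, chr12:55368806-55369005: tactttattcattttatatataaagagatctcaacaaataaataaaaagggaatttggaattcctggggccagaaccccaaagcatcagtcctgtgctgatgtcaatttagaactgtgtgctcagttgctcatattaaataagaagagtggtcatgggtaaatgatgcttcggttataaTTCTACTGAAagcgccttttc
Saa4 side, chr7:46724470-46724669: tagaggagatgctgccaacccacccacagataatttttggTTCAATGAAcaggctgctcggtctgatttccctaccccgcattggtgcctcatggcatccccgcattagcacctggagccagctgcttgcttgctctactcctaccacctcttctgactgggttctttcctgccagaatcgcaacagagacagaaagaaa
Gnaq side, chr19:16108830-16109029: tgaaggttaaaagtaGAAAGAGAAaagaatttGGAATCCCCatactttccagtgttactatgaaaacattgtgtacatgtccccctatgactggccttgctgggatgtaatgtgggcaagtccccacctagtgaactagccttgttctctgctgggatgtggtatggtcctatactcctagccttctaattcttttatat
Plpp1 promoter, chr13:112800898-112801097: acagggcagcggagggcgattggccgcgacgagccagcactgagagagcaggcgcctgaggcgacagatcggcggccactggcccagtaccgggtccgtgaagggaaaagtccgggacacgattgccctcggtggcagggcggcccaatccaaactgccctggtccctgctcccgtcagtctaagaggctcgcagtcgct
Cx3cr1 promoter, chr9:120068621-120068820: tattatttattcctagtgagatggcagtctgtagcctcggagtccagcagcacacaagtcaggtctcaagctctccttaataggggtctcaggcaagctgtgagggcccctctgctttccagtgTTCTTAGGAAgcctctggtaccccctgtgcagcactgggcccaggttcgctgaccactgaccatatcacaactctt
The Plpp1 window had 67% G and C and no bases marked as repeat, and the second Psma6-side window had 36% G and C with 55 repeat bases. A match of letters is a description of these windows and does not show that a factor bound there.

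Most lost regions were weak and narrow in both unstimulated lists. Scores are given as percentiles within a list, from 0 for the lowest to 100 for the highest, and because the scores are whole numbers many peaks share a percentile. The median lost region was at percentile 26.9 in Control and 25.3 in PJ34, where regions found in all 4 lists had medians of 74.5 and 74.2. Fold enrichment over local background had a median of 3.86 in Control (range 1.79 to 14.5) and 3.57 in PJ34 (range 1.76 to 16.2). The median width was 556 bp, against 1825 bp for regions of all 4 lists. A total of 2104 members (94.3%) consisted of 1 Control peak and 1 PJ34 peak. The 2 summits were a median of 70 bp apart, and 61.8% lay within 100 bp of each other. Across members, fold enrichments in the 2 lists were weakly related (Pearson r of log2 values 0.17, Spearman rho 0.14, n = 2231), where the regions of all 4 lists gave 0.85 for both measures. These points share libraries and the first set spans a narrow range, so the values are descriptions.

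The share of regions with peaks in Control and PJ34 that had none in either IFNγ list differed with strength. By the lower of a region's 2 percentiles, it was 32.7% of 4413 regions up to percentile 25, 10.9% of 6825 up to 50 and 0.554% of 7942 up to 75. Above percentile 75 it was 0 of 9141, which allows a share of up to 0.0403% (exact upper limit). The reverse class, regions with peaks in IFNγ and IFNγ+PJ34 and none in Control or PJ34, numbered 1264. In it the shares were 12.4%, 9.40%, 3.30% and 0.141%. The share was thus higher for the lost regions up to percentile 50 and lower above it. Lost regions made up 63.8% (95% interval 62.2% to 65.4%) of both classes together. This last share was between 55.7% and 66.2% under other ways of merging or trimming the lists. Intervals are exact and cover counting error only, and neighbouring regions are not independent.

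**Figure D1:**
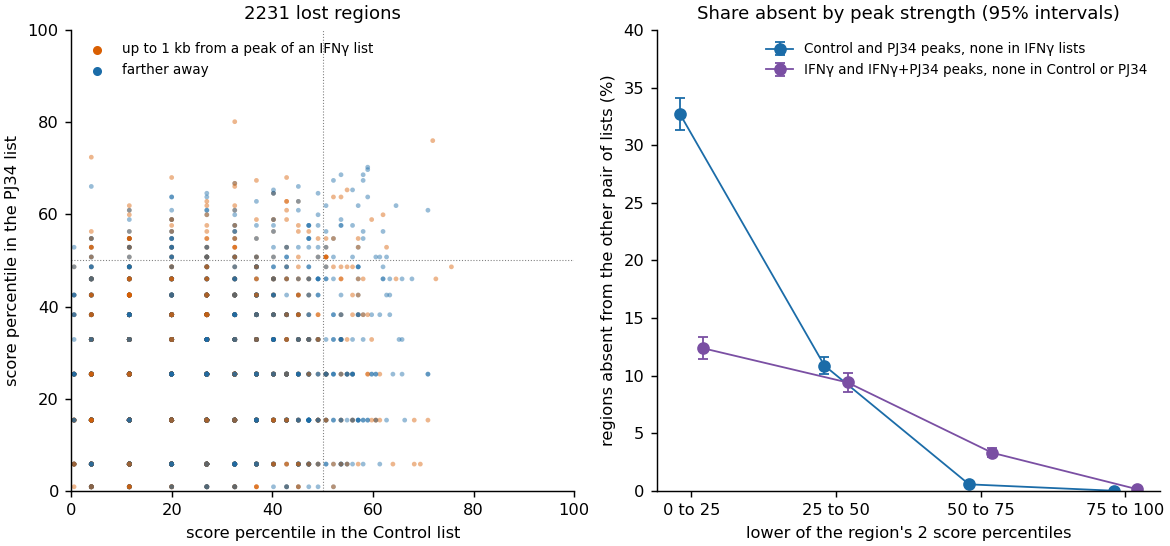
The left panel plots each of the 2231 lost regions by its score percentile in Control (x axis) and in PJ34 (y axis), coloured by whether a peak of an IFNγ list lay within 1 kb, and 44 regions lie above percentile 50 on both axes. The right panel plots the percent of regions with peaks in 1 pair of lists that had none in the other pair, against the lower percentile, with exact 95% intervals, and the blue points drop from 32.7% to 0.

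A subset was stronger. Of the members, 198 were above percentile 50 in Control, 214 in PJ34 and 44 (1.97%) in both. The strongest by the lower percentile lay in an intron of Dcakd (chr11:103007398-103008430), with 12.0-fold enrichment in Control and 14-fold in PJ34, and its nearest IFNγ-list peaks were 0.348 kb away in IFNγ and 0.336 kb in IFNγ+PJ34. The intergenic region near Cryaa, a lens crystallin gene (chr17:31753746-31754755), had 14.5-fold and 6.44-fold enrichment, with no peak of either IFNγ list closer than 78.9 kb. The region near Gdpd2 (chrX:100740687-100741899) had 11.1-fold and 8.26-fold, with the nearest such peak 32.6 kb away. The promoter of Plpp1, which encodes a lipid phosphate phosphatase (chr13:112800816-112801551), had 7.84-fold and 8.71-fold enrichment and lay 124.7 kb from the nearest IFNγ peak. The other members of the 10 strongest lay near Gnaq, BC017158, Cavin4, Saa4 and Dyrk2 and in the Psma6-side pair, and over all 10 the fold enrichment was 6.90 to 14.5 in Control and 6.44 to 14 in PJ34. The next promoter members by strength, at Ska1, Dlgap5, Rsph9 and Pea15a, had 5.22-fold to 7.08-fold enrichment in Control and 5.06-fold to 7.17-fold in PJ34. After the Psma6 intron described below, the widest members were 3224 bp in an intron of Arhgap22, at 3.86-fold and 8.68-fold, and 3054 bp in an intron of Pid1, at 4.46-fold and 4.31-fold. Of the 10 strongest members, 3 lay within 1 kb of a peak of an IFNγ list and 4 lay over 10 kb from any.

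Lost regions lay both close to and far from peaks of the IFNγ lists. Within 1 kb of a peak of either IFNγ list lay 963 of them (43.2%, 41.1% to 45.3%), while 479 (21.5%) lay over 10 kb away. For the reverse class, 24.0% lay within 1 kb of a Control or PJ34 peak. The 3 distance groups (up to 1 kb, 1 to 10 kb and over 10 kb) had the same median percentiles, 26.9 in Control and 25.3 in PJ34. Many peaks share these percentiles. In the same order the median fold enrichment was 3.73, 3.86 and 4.13 in Control and 3.58, 3.55 and 3.65 in PJ34. Promoters made up 10.1%, 5.58% and 14.8% of the groups in that order. At the limit of the rule, the members nearest to exclusion lay 7, 9 and 11 bp from an IFNγ-list peak, at Itgb8, Scgb1a1 and Rbpj. The regions nearest to inclusion shared 1, 52 and 56 bp with one, at Trpv4, Il1rl2 and Hlx.

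By position, the lost regions were mostly distal. Their Control summits lay at promoters (within 1 kb of a protein-coding start site) in 212 cases (9.50%, 8.32% to 10.8%), in exons in 3.36%, in introns in 46.3% and between genes in 40.8%. The promoter share was 3.80% (2.81% to 5.00%) in the reverse class, taken at IFNγ summits because it has no Control peak. In the 2009 regions of Control and IFNγ+PJ34 alone the promoter share was 5.48% (4.52% to 6.56%). It was 46.4% in the regions of all 4 lists and 18% (16.7% to 19.3%) in those of them whose Control peak was in the lower-scoring 50%. With each list trimmed to its higher-scoring 50%, the promoter share of lost regions was 23.9%. The median distance to a start site was 18.7 kb, against 22.5 kb in the reverse class and 3.05 kb in the regions of all 4 lists. By gene, 111 had start-site peaks in Control and PJ34 alone and 36 in IFNγ and IFNγ+PJ34 alone, where 10424 had them in all 4 lists. Among regions 1 to 50 kb from the nearest start, that gene had a promoter peak in all 4 lists for 1160 of 1462 lost regions (79.3%). This was 81.7% for regions of all 4 lists, 76% for those of Control and IFNγ+PJ34 alone and 72.5% for the reverse class.

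**Figure D2:**
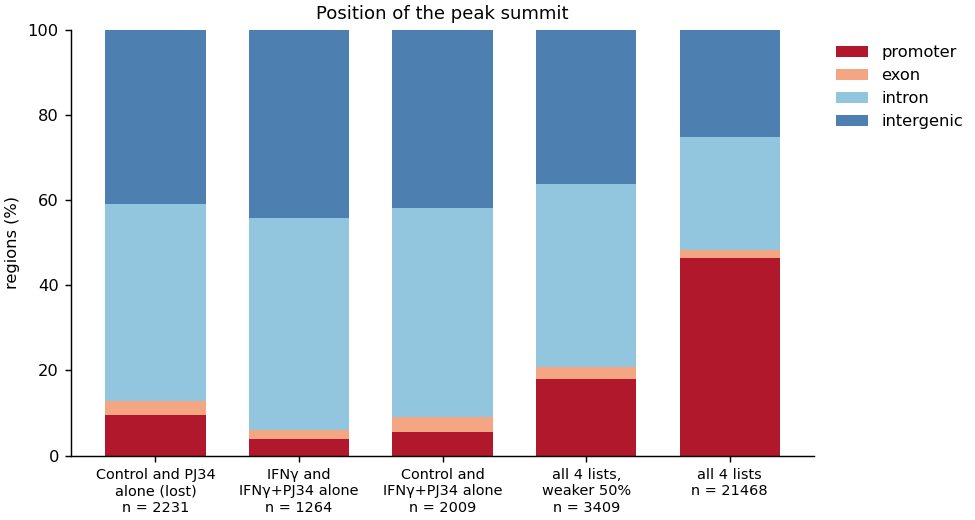
Stacked bars give the percent of regions of each class whose peak summit lay at a promoter, in an exon, in an intron or between genes, with the number of regions under each bar. The lost regions have 9.50% at promoters, above the 3.80% of the reverse class and below the 18% of the weaker regions of all 4 lists.

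Psma6, Nfkbiz and Ifnar2 had the most lost regions around their starts. Regions were counted within 50 kb of the nearest annotated protein-coding start of a gene, where 13.2% of 21864 protein-coding genes had at least 1, and 5.83% of all Control regions were members. The count was highest for Psma6, a proteasome subunit gene, with 10 members among 19 Control regions. It was next highest for Nfkbiz, which encodes the nuclear IκBζ, with 9 of 15. With peaks up to 1 kb apart joined, these counts were 1 near Psma6 and 3 near Nfkbiz. The next gene was Ifnar2, a chain of the type I interferon receptor, with 7 of 16. Il10rb, the shared chain of the IL-10 receptor family, and the overlapping Gm21970 had the same 7 regions. Il1b, the IL-1β gene, had 6 of 17. Abr had 5 of 22, Spns2 had 5 of 8, Clic4 had 5 of 18 and Dhx34 had 5 of 17. None of these 10 genes had more than 1 region of the reverse class, where 7.12% of all protein-coding genes had any. Most members stood alone, and joined within 10 kb they gave 1657 single regions, 206 pairs and 48 groups of 3 or more.

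Psma6 lies next to Nfkbia, which encodes IκBα, the inhibitor that NF-κB itself induces. Within 50 kb of the Psma6 starts the Control list had 23 peaks, IFNγ had 12, PJ34 had 38 and IFNγ+PJ34 had 4. These peaks covered 21.1 kb, 8.29 kb, 49.1 kb and 4.00 kb in that order. Both lists with IFNγ were below both without it, as they were over all peaks, and the members were selected on that pattern. The strongest members were the pair whose sequences open the list above. The region chr12:55367316-55368558 had 6.90-fold enrichment in Control and 10.5-fold in PJ34, and chr12:55368689-55371616 had 7.47-fold and 7.96-fold. They belonged to a group of 6 members over 13.3 kb in the introns of 1110008L16Rik. The widest member of all, 5306 bp in an intron of Psma6 (chr12:55389952-55395257), had 3.35-fold enrichment in Control and 16.2-fold in PJ34, and lay 0.103 kb from an IFNγ peak. Nfkbia had 5 members among 9 Control regions, 2 of them shared with Psma6, between 22.9 and 49.6 kb from its start. The Psma6 and Nfkbia promoters had a peak in every list and were not part of the rule. For Psma6 this was at the start 14.6 kb downstream of the most upstream one, which had no peak in any list. Promoter values here and below are those of the highest peak within 1 kb of any protein-coding start of the gene. Control gave the Nfkbia promoter 66.1-fold enrichment, IFNγ 71.0-fold, PJ34 39.5-fold and IFNγ+PJ34 54.9-fold.

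At Nfkbiz (chr16:55811375-55838899) the lost regions lay mainly downstream of the gene, which is read on the − strand. A group of 9 stretched over 34.3 kb (chr16:55756809-55791086), 6 of them within 50 kb of the nearest annotated start, which lies inside the gene. These 6 had Control fold enrichments between 3.59 and 5.19 and PJ34 values between 3.95 and 8.42, and lay 1.18 to 12.3 kb from the nearest peak of an IFNγ list. A member in an exon of the neighbouring gene Nxpe3 on the other side, 10.9 kb from the most upstream Nfkbiz start, had 4.02-fold in Control and 9.70-fold in PJ34. Within 50 kb lay 19 peaks of Control, 10 of IFNγ, 25 of PJ34 and 8 of IFNγ+PJ34. At the most upstream start the enrichment was 29.1-fold in Control, 28.5-fold in IFNγ, 43.9-fold in PJ34 and 13.0-fold in IFNγ+PJ34. The internal start, 16.8 kb downstream of it, had 59.1-fold, 66.4-fold, 48.5-fold and 48.2-fold enrichment in that order. Neither start was part of the rule, and their order across the lists was not the same.

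**Figure D3:**
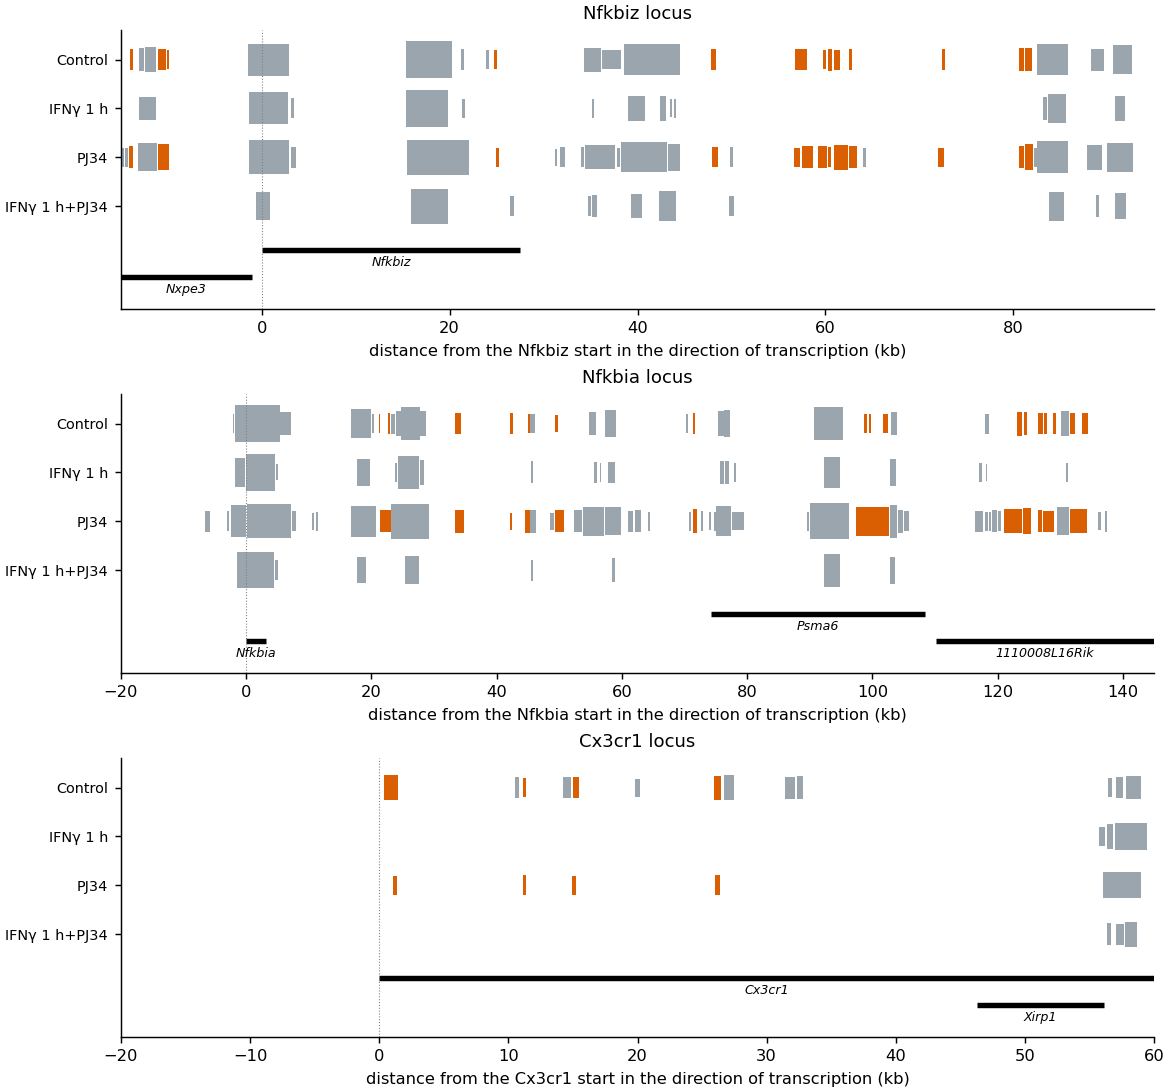
Each row of a panel shows the peaks of 1 list as bars along the distance (kb) from the most upstream start of Nfkbiz, Nfkbia or Cx3cr1, with taller bars for higher fold enrichment, orange for peaks in lost regions, and black lines for gene bodies. In the windows drawn, Control, IFNγ, PJ34 and IFNγ+PJ34 have 25, 13, 32 and 11 peaks at Nfkbiz, 36, 19, 49 and 8 at Nfkbia, and 13, 3, 6 and 3 at Cx3cr1.

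At Il1b (chr2:129364570-129371139) the 6 members were weak, with Control fold enrichments of 2.71 to 4.93 and PJ34 values of 2.83 to 5.83. The Il1b promoter, which had a peak in all 4 lists, also differed. Its fold enrichment was 20.8 in Control and 14 in PJ34, and 5.68 in IFNγ and 3.34 in IFNγ+PJ34. The percentiles were 82.4, 82.8, 48.7 and 15.6 in that order, so the 2 lists with IFNγ were below the 2 without. Saa3, an acute phase protein gene of macrophages, showed the same order. It had 4 members among 12 Control regions, among them the Saa4-side region printed above (chr7:46724007-46725497), at 9.31-fold in Control and 7.41-fold in PJ34. Its promoter had 15.6-fold enrichment in Control, 12.4-fold in PJ34, 6.20-fold in IFNγ and no peak in IFNγ+PJ34. Ptges, the inducible prostaglandin E synthase, had 4 of 11, of which 3 lay in its gene body, and within 50 kb lay 14 peaks of Control, 13 of IFNγ, 24 of PJ34 and 6 of IFNγ+PJ34. The Ptges promoter had 4.00-fold enrichment in Control, 4.42-fold in IFNγ, 5.99-fold in PJ34 and no peak in IFNγ+PJ34. Il1a, beside Il1b, had another order, at 3.72-fold in Control (percentile 32.5), 9.53-fold in IFNγ (66.4), 4.63-fold in PJ34 (46.0) and 6.66-fold in IFNγ+PJ34 (50.2). With 1 list per condition these differences have no replicate error.

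These loci led to a list of 30 genes of the NF-κB system and its inflammatory targets, chosen after the values were seen, so its count is a description. It held 18 genes with a lost region (60%) and 3 with a region of the reverse class (10%), and 41 of its 243 Control regions (16.9%) were members. Among the subunits, Nfkb1, Nfkb2, Rel, Rela and Relb had none. Among the inhibitors and feedback genes, Nfkbia, Nfkbib, Nfkbie, Nfkbiz, Tnfaip3, Tnip1 and Irak3 had 1 or more. Among the cytokines, Il1a had 2 of 13 Control regions, Tnf 1 of 16 and Il12b 1 of 6. The promoters of 24 of the 30 had a peak in all 4 lists.

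Genes of the interferon response had the lowest share of genes with a lost region among the lists drawn up for this work. Of 29 matched genes, 4 (13.8%, 3.89% to 31.7%) had a lost region, near the 13.2% of all protein-coding genes. A region of the reverse class lay near 14 of them (48.3%), where 7.12% of all protein-coding genes had one. Members were 5 of 149 Control regions (3.36%, 1.10% to 7.66%), an interval that holds the 5.83% of all Control regions. Because active genes have more regions around them, the shares are also given for the 15609 genes with a Control region within 50 kb, of which 18.5% had a lost region and 9.43% a reverse one. Socs3, a feedback inhibitor of cytokine signals, the immunoproteasome gene Psmb8 and Cd274 had 1 region each. The promoter of Cd274, which encodes PD-L1, had 27.5-fold enrichment in Control, 99.4-fold in IFNγ, 23.7-fold in PJ34 and 49.8-fold in IFNγ+PJ34.

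By the share of genes, the other lists lay between the interferon list and the NF-κB list, which was chosen after its loci were seen. That share depends on the number of Control regions around each gene, for which no matching was made. Immediate early and feedback genes had a lost region in 14 of 26 cases (53.8%), with 21 of 233 Control regions (9.01%) as members, and it shares Nfkbia and Tnfaip3 with the NF-κB list. Fos had 2, Btg2 2 with 1 at its promoter, and Fosb, Fosl1, Jun, Egr1, Ier3, Dusp1, Dusp4 and Klf2 1 each. Cytokine and growth factor receptors had 11 of 24 (45.8%), with 24 of 199 regions (12.1%). The alternative activation and resident-like list had 13 of 30 (43.3%), with 19 of 222 (8.56%). Cytoskeleton and adhesion genes had 9 of 26 (34.6%), with 15 of 225 regions (6.67%), and lineage regulators 7 of 25 (28%), with 16 of 220 (7.27%). Lipid and lysosome genes had 6 of 24 (25%), with 7 of 209 regions (3.35%), a region share as low as that of the interferon list. In these 6 lists between 8.33% and 19.2% of genes had a region of the reverse class. The lists were drawn up with earlier results of these data known, and no test of a list was made.

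**Figure D4:**
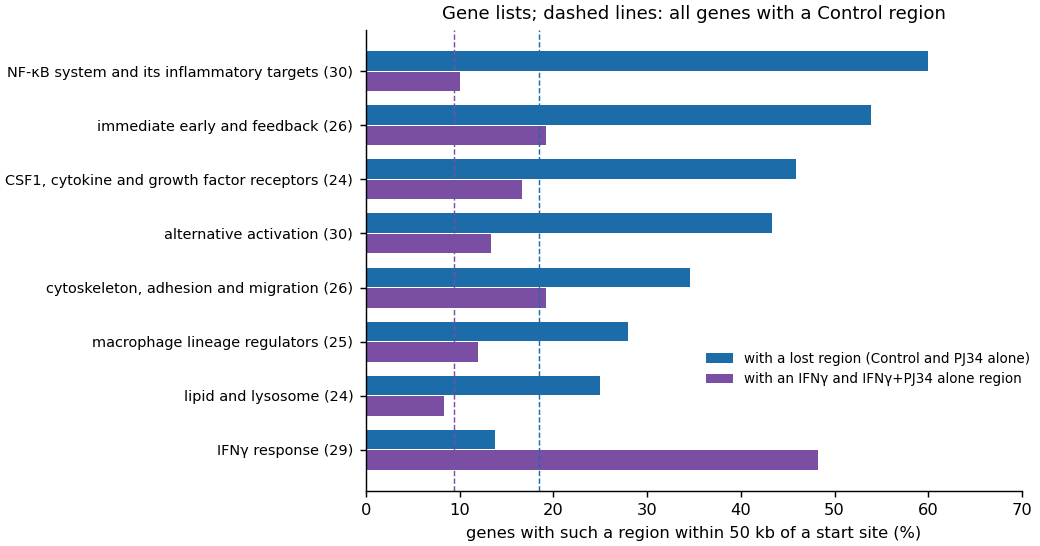
Paired bars give the percent of genes in each list (number of matched genes in brackets) with a lost region or a region of the reverse class within 50 kb of a start site, and dashed lines give both percents over all genes with a Control region, 18.5% and 9.43%. The interferon response list has 13.8% and 48.3%, and the NF-κB list, chosen after the values were seen, has 60% and 10%. The dashed lines are not matched for the number of Control regions per gene. Lipid and lysosome genes lie above the first line at 25%, yet 3.35% of their Control regions were members, against 5.83% of all.

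Among the receptors, Cx3cr1, the fractalkine receptor of resident macrophages and monocytes, had a member at its promoter. By the rule, that region holds no peak of an IFNγ list. Cx3cr1 had 4 members among 13 Control regions. Its promoter region (chr9:120068405-120069476) had 8.09-fold enrichment in Control (percentile 55.9) and 2.94-fold in PJ34 (percentile 5.78). The intronic member at chr9:120043412-120043967 had 7.58-fold in Control and 3.54-fold in PJ34. The remaining pair had 4.69-fold and 3.61-fold in Control and 3.19-fold and 3.91-fold in PJ34. The nearest IFNγ-list peaks were 29.3 to 44.4 kb away. Around Cx3cr1 the Control list covered 9.94 kb, IFNγ 3.92 kb, PJ34 3.71 kb and IFNγ+PJ34 2.06 kb, so that the PJ34 coverage was closer to the IFNγ lists than to Control.

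Tnfrsf1b, the second TNF receptor, had 5 members among 17 Control regions, with Control fold enrichments of 2.12 to 3.40. Ifngr2, a chain of the IFNγ receptor, had 3 of 9, of which an adjacent pair near 34 kb from the start reached 5.78-fold in Control and 5.80-fold in PJ34. Il10ra had 3 of 19 and Ccr2 had 3 of 19. Pdgfb had 2 of 11, one with 5.41-fold in Control and 6.94-fold in PJ34. For the M-CSF receptor gene Csf1r, which macrophages need to live, 4 of 19 Control regions were members, with 3.59-fold to 4.64-fold enrichment in Control and 3.14-fold to 4.32-fold in PJ34. Its promoter had 98.5-fold enrichment in Control, 28.0-fold in IFNγ, 40.2-fold in PJ34 and 42.9-fold in IFNγ+PJ34. The percentiles were 99.7, 93.5, 97.2 and 99.4 in that order.

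In the alternative activation list, Ccl22, a chemokine that draws regulatory T cells, had 4 members among 7 Control regions. The one at chr8:94703625-94704029 had 3.80-fold enrichment in Control and 8.33-fold in PJ34. Another of the 4 is the promoter of Cx3cl1, which encodes the CX3CR1 ligand and lies between Ccl22 and Ccl17. It had 3.38-fold enrichment in Control and 3.89-fold in PJ34, and is also counted for Ccl17. Folr2, a marker of resident macrophages, had 3 of 17, including its promoter at 3.91-fold in Control and 2.91-fold in PJ34. Stat6, the mediator of IL-4 signals, had 2 of 17, one at 6.70-fold in Control and 3.31-fold in PJ34. Il10, Egr2, Cd36, Msr1, Axl, Igf1, Trem2 and Pdcd1lg2 had 1 each, with Control enrichments of 1.79-fold to 4.80-fold. The Pdcd1lg2 region lies in an exon of Cd274 and is the same region that was counted for Cd274 above. Genes without any included Arg1, Mrc1, Retnla, Klf4 and Mertk.

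Among the lineage regulators, Spi1, which encodes PU.1, had 3 members of 12 Control regions, each 0.194 to 0.284 kb from an IFNγ-list peak and at 2.91-fold, 4.56-fold and 5.14-fold in Control. The Spi1 promoter had 124-fold enrichment in Control, 94.8-fold in IFNγ, 87.5-fold in PJ34 and 30.8-fold in IFNγ+PJ34. Its percentiles were 99.99, 99.9, 99.8 and 97.2 in that order. Cebpb had 3 of 12, Nr4a1 2 of 18, Zeb2 2 of 9 and Mitf and Id2 1 each. The promoters of 6 of these 7 genes had a peak in all 4 lists, and that of Nr4a1 in 3.

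**Figure D5:**
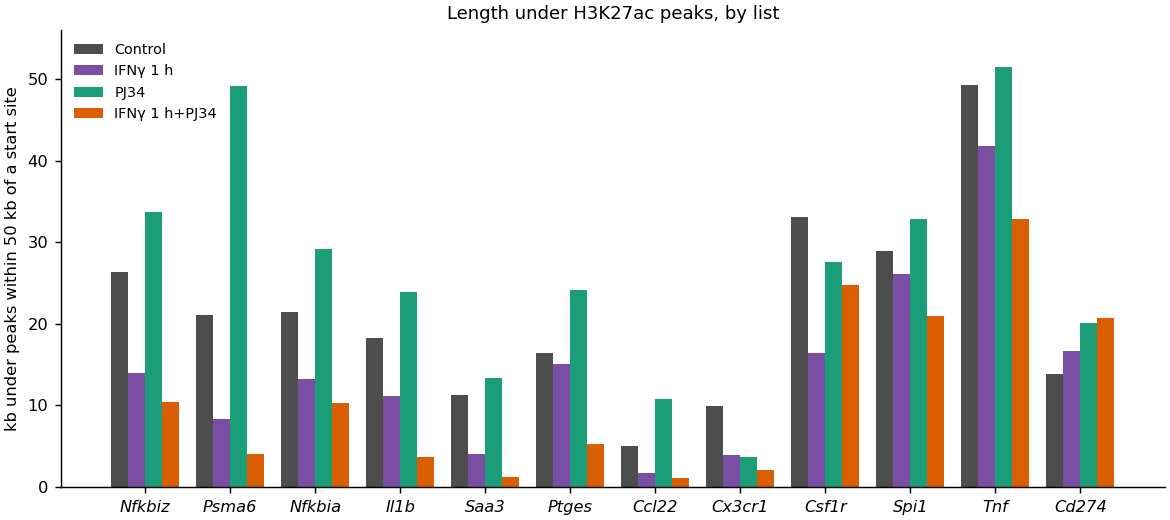
Bars give the length under H3K27ac peaks (kb) within 50 kb of the start sites of 12 genes in each of the 4 lists. Both lists with IFNγ lie below both without it at 10 genes, as over all peaks (42.5 and 44.1 Mb against 47.9 and 52.6 Mb), while at Cx3cr1 PJ34 (3.71 kb) lies beside IFNγ (3.92 kb) and at Cd274 Control (13.8 kb) is lowest.

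In base content the lost regions were close to other weak regions. Windows of 200 bp were taken around the Control summit, or around the IFNγ summit in the reverse class, which has no Control peak. The median G and C content was 47.0% in lost regions and 44.5% in the reverse class. It was 46.0% in the regions of Control and IFNγ+PJ34 alone and 53.0% in those of all 4 lists. Bases marked as repeats made up 19.7% of the windows of lost regions, against 21.6%, 18.6% and 12.1% in the other classes in that order. By chromosome, members were from 4.58% of Control regions on chromosome 3 to 7.97% on chromosome 12, where Psma6 and Nfkbia lie, and 7.40% on X, leaving out Y with 0 of 10.

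Of 15 motifs searched on both strands of these windows, few set the lost regions apart. For all merged regions, the window lay around the summit of the peak with the highest percentile in any list. The GAS motif was in 5.78% of lost regions, 7.99% of the reverse class, 5.11% of regions of all 4 lists and 5.84% of all merged regions. The difference from the reverse class was -2.21 percentage points (-4.09 to -0.43), and with the ends exchanged, GAANNNTTC, it was -0.897 (-2.51 to 0.612). The AP-1 motif TGANTCA was in 6.28% of lost regions and 3.89% of regions of all 4 lists, a difference of 2.39 points (1.38 to 3.50). Among regions whose Control peak was in the lower-scoring 50% this difference was 0.664 points (-0.647 to 2.03). The NF-κB motif GGGNNTTCC was in 2.51% of lost regions, 1.42% of the reverse class and 3.29% of regions of all 4 lists. Its difference was 1.09 points (0.0671 to 2.02) from the reverse class and -0.779 (-1.44 to -0.00491) from regions of all 4 lists. Off promoters the first of these was 0.930 points (-0.102 to 1.88). The PU.1 motif GAGGAAGT was in 1.03% and in 1.14% of regions of all 4 lists, a difference of -0.106 points (-0.511 to 0.424). The GC box GGGCGGG was in 3.27% of lost regions, 0.712% of the reverse class and 10.4% of regions of all 4 lists, and off promoters the first of these differences was 1.46 points (0.623 to 2.25). In the comparison with regions of all 4 lists, intervals of 7 motifs lay off 0, of 1 motif among regions whose Control peak was in the lower-scoring 50%, and of 0 off promoters.

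The counts at single loci depended on how peaks were joined. Joining peaks up to 1 kb apart left 3 members near Nfkbiz, 1 near Psma6, 3 near Nfkbia, 2 near Il1b and 4 near Cx3cr1. Trimming each list to the higher-scoring 50% left 1, 3, 0, 3 and 0 in the same order, and lists of equal size left 9, 9, 4, 6 and 3.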

How the data were processed

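H3K27ac ChIP-seq of mouse BMDMs was used, with 8 ChIP and 8 input samples in 4 conditions grouped by the sample titles. The authors aligned reads to mm10 with Bowtie, filtered them with Samtools and Picard, called peaks in each replicate with MACS at p = 0.01 against input, and kept peaks that overlapped in both replicates. The deposited lists give, per peak, a score, a fold enrichment (a ratio), and −log10 p-values and q-values as the peak caller wrote them, which were deposited by the authors without read counts.

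Peaks were merged at 1 bp of overlap with pandas 2.3.3 in Python 3.11.15. A region's value in a list is that of its highest-scoring peak, and percentiles are average ranks of the score. Summits were assigned to protein-coding genes of GENCODE M21 (basic set) on GRCm38, the same build. Shares have exact Clopper-Pearson 95% intervals (SciPy 1.17.1), and differences of shares combine the limits of both. They cover counting error only. No p-value is given, because there is 1 list per condition. The merging, annotation and motif search were checked on simulated data.

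The members and gene lists were chosen with earlier results of these data known. Named are the 10 members with the highest lower percentile, the 5 such at promoters, the 3 widest, the 10 genes with the most members within 50 kb, and genes of the lists. An NF-κB list, the loci followed by list and the Cx3cr1 window were added after the values were seen. Of the IFNγ response list, Cxcl11 was not matched. Alternatives changed the overlap, list length, q threshold, summit, gene distance and promoter width.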

Additional observations from a re-analysis of the deposited data

How the results depend on the processing

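No paired analysis was possible because each deposited list combines both replicates of a condition, which also means that none could be left out. The number of lost regions was 1068 with peaks up to 1 kb apart joined and 1143 with the higher-scoring 50% of each list, and stayed within 1.5 times the 2231 for an overlap of 50% of the shorter peak, equal list sizes, q under 0.01 and autosomes. The share of lost regions in both classes was 55.7% with joining, 58.6% with the higher-scoring 50%, 56.9% with equal sizes and 66.2% with q under 0.01. The promoter share was 23.9% with the higher-scoring 50% and 13.1% with promoters drawn at 2 kb, and the share within 1 kb of an IFNγ-list peak was 22.0% with the higher-scoring 50%. The median G and C content was 49.5% with the higher-scoring 50% and 46.4% over whole regions. The median Control percentile was 26.9 in both alternatives run. Percentiles were kept from the full lists and many peaks share this one, so the equal value is not a check. Against regions of all 4 lists, the GAS difference was -1.16 points among regions whose Control peak was in the lower-scoring 50% and -0.980 off promoters, where it was 0.677 at first. The AP-1 difference was 0.664 and 0.972, and the PU.1 difference was 0.383 at PJ34 summits and 0.0753 in the lower-scoring 50%. Intervals of the GAS and PU.1 differences held 0 throughout. Genes of the alternative activation list with a lost region were 6 within 10 kb and 7 with the higher-scoring 50%. In the same order these were 1 and 2 of the interferon list (4 at first, and 2 with equal sizes), 5 and 6 of the immediate early list (14 at first), and 5 and 5 of the receptors (11 at first). The off-promoter comparison was added after the data were seen. The cause of these changes was not tested, except that shorter lists hold fewer peaks by construction. Presence in a list rests on a threshold, and library depth is unknown, so a weak region can leave a list without a change of acetylation.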

Other observations

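Other groups of lost regions lay at genes outside the lists or far from any start. For 4 members over 11.7 kb (chr5:64623790-64635534) the nearest start was that of Klf3, a gene for a repressor of the KLF family. Klf3 itself lies at chr5:64803388-64832901 and had 0 members within 50 kb. In Ubash3b, which encodes a tyrosine phosphatase, 4 members spanned 17.7 kb, and the promoter had 35.4-fold enrichment in Control, 37.3-fold in IFNγ, 38.2-fold in PJ34 and 34.0-fold in IFNγ+PJ34. In Anxa2, the annexin A2 gene, 4 members spanned 5.45 kb, and the promoter had 46.2-fold, 28.4-fold, 32.2-fold and 11.7-fold enrichment in that order. At Acp5, the tartrate-resistant acid phosphatase gene of osteoclasts, 4 members spanned 10.5 kb. Spp1, the osteopontin gene, had 4 members within 50 kb, and its promoter enrichment was 11.1-fold, 8.15-fold, 11.3-fold and 11-fold. These loci were chosen after their values were seen, and each value comes from 1 list per condition.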
